A study of Mus musculus with 6 samples.

Results

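Kinesins are motor proteins that use ATP to move along microtubules, and 44 genes of this family were examined in cultured mouse dorsal root ganglion (DRG) neurons after treatment with HC-HA/PTX3, a matrix complex purified from human amniotic membrane. The genes were taken by symbol, as names beginning with Kif and a digit or the letter c, together with Klc1 to Klc4. Of 48 matching symbols among 35976 listed genes, 44 had at least 10 raw counts in 3 or more of the 6 cultures. Of these, 12 act in mitosis (Kif2c, Kif4, Kif11, Kif14, Kif15, Kif18a, Kif18b, Kif20a, Kif20b, Kif22, Kif23 and Kifc1), and the other 32 mainly serve transport or build cilia and microtubule arrays. One of the 32, Kif1bp, encodes a kinesin-binding protein and no motor. The neurons came from lumbar ganglia of C57BL/6 mice of both sexes, 2 to 3 months old, and were kept with serum and growth factors. After 24 h on the dish, 3 cultures received vehicle and 3 received HC-HA/PTX3 at 15 µg/mL, and RNA was sequenced 24 h later. The cultures were enriched for neurons without a sort for single cell types, and nothing states how many animals went into each.

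A kinesin moves cargo or slides and shortens microtubules, depending on where the motor domain lies and which tail it carries. In sensory neurons, whose axons can be very long, plus-end-directed kinesins carry vesicles, mitochondria and channels from the cell body toward the terminals, while mitotic kinesins assemble the spindle, position chromosomes and complete cytokinesis. Mature sensory neurons do not divide, and mitotic kinesins are transcribed mainly in dividing cells.

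The libraries held 42516054, 42617496 and 54117547 counts in vehicle cultures 1, 2 and 3, and 37998071, 37434266 and 38420247 counts in the HC-HA/PTX3 cultures of the same numbers. Levels are given as CPM, raw counts per 1000000 of the library size after scaling for composition, always in the order of replicates 1, 2 and 3. A count of 0 in a library allows a level of up to 0.0808 CPM, a limit that covers counting error only. The study calls its samples biological replicates, and whether each culture came from separate animals is not given in the sources used here. P-values therefore refer to these cultures and not to animals. In the main fit they weigh a change against the variation of differences within same-numbered cultures, not against the full spread between cultures. Both cultures numbered 3 stood apart from the rest before any comparison was made. Among the 12 mitotic kinesins the median log2 ratio of replicate 3 to replicate 1 was -1.38 with vehicle and -1.90 with HC-HA/PTX3, and all 12 were lower in replicate 3 in both groups. For the 32 other kinesins the medians were -0.17 and -0.06. Markers of satellite glia, the cells that wrap the neuron bodies, had medians of -2.76 and -2.88. Schwann cell myelin markers had -1.11 and -1.34 and fibroblast markers -0.85 and -1.45, whereas neuronal markers had medians of -0.13 and -0.09. Because of these differences between replicate numbers, the comparison was made within same-numbered cultures, with the replicate number as a block, and each main result is also given without replicate 3.

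Mitotic kinesins fell after HC-HA/PTX3 treatment, whereas most transport kinesins did not pass the test in either direction. A gene was called when its adjusted p was below 0.05 and its log2 fold change was beyond 0.5 in size. Among all 18277 genes tested, 1591 (8.70%) were called, 984 (5.38%) lower and 607 (3.32%) higher. Without replicate 1 the count was 878, with 630 lower and 248 higher. Of the 12 mitotic kinesins 11 were called lower and 0 higher, and the 12 fitted changes ran from -1.45 to -0.36 with a median of -1.32 (all tested genes, -0.01). Of the 32 other kinesins 1 was called lower (Kif24) and 2 higher (Klc4 and Kifc2), and their median was 0.07. Each of the 12 mitotic kinesins was lower with HC-HA/PTX3 in all 3 same-numbered pairs, a pattern shared by 5242 (28.7%) of all tested genes. In bulk RNA, fewer dividing cells and less kinesin RNA in each of them cannot be told apart.

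**Figure D1:**
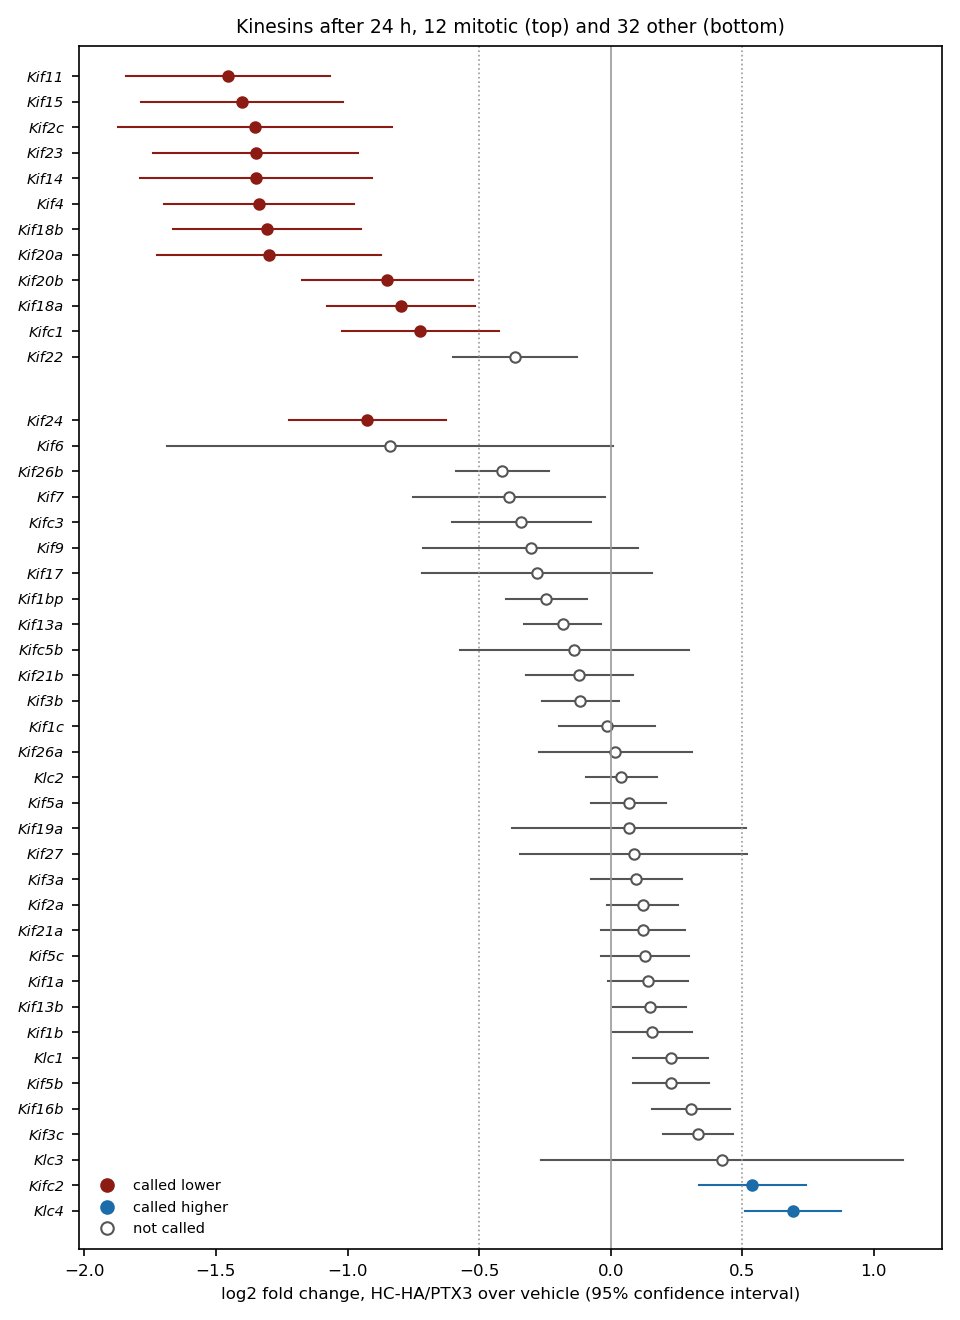
Fitted log2 fold change of each of the 44 kinesins (points) with its 95% confidence interval (lines), HC-HA/PTX3 over vehicle, with 3 cultures per group and the replicate number as a block; filled points were called and dotted lines mark the fold threshold of 0.5. The 11 called mitotic kinesins lie between -1.45 and -0.72, while 29 of the 32 other kinesins carry open points.

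The groups overlapped for each of the 12 mitotic kinesins when the replicate number was set aside, because vehicle culture 3 lay below at least 1 treated culture. Among all tested genes, every HC-HA/PTX3 culture lay below every vehicle culture for 1566 (8.57%) and above for 1725 (9.44%), against 0 of 12 mitotic kinesins in each direction. Without the block, edgeR called 0 of 18277 genes (0%), 2089 (11.4%) of them having an unadjusted p under 0.05. In that fit 2 of the 12 mitotic kinesins had an unadjusted p under 0.05, the smallest adjusted p among the 12 was 0.423, and their median log2 fold change was -1.21. The calls therefore rest on comparing cultures of the same number. Without replicate 3, the same 11 mitotic kinesins were called lower, with a median of -1.04, and the same 3 other kinesins were called.

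Of 3 motors that help set up the bipolar spindle, Kif11 and Kif15 fell by more than Kifc1. Kif11, the kinesin-5 motor that slides apart antiparallel microtubules so that the spindle poles separate, lies at chr19:37376382-37421863 (mouse build GRCm38). Its level was 46.9, 34.5 and 17.7 CPM in the vehicle cultures and 17.9, 17.8 and 3.94 CPM in the HC-HA/PTX3 cultures. Vehicle culture 3 lay just below treated cultures 1 and 2, and treated culture 3 was the lowest of the 6. The fitted change was -1.45 (95% confidence interval -1.84 to -1.07, adjusted p = 0.000938), and -1.16 without replicate 3. Kif15, a kinesin-12 that can keep poles apart when Kif11 is impaired, measured 32.1, 22.2 and 11.1 CPM with vehicle and 11.02, 12.5 and 2.87 CPM with HC-HA/PTX3 (log2 fold change -1.40, SE 0.17, adjusted p = 0.00103). Here vehicle culture 3 fell between treated cultures 1 and 2. Kifc1, a minus-end-directed kinesin-14 that gathers microtubule ends at the poles, had 10.4, 9.75 and 4.61 CPM with vehicle against 5.42, 6.305 and 3.07 CPM after treatment. Treated cultures 1 and 2 lay above vehicle culture 3. The change of Kifc1 was smaller (log2 fold change -0.72, SE 0.13, adjusted p = 0.00541), and without replicate 1 it was no longer called (adjusted p = 0.0733, against 1.32e-05 to 0.0733 over 11 alternative settings that kept the block).

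Kinesins that act on chromosomes and on microtubule length gave unequal changes. Kif4, a chromokinesin of chromosome arms and the central spindle, was at 28.5, 21.7 and 11.001 CPM in vehicle cultures and 11.2, 11.8 and 2.92 CPM in treated ones (log2 fold change -1.34, SE 0.16, adjusted p = 0.000938). Kif22, the other chromokinesin, which pushes chromosome arms away from the poles, had 21.1, 18.2 and 14.6 CPM and 14.1, 14.7 and 12.7 CPM. The 2 groups of Kif22 barely overlapped, with treated culture 2 just above vehicle culture 3. Its change of -0.36 (SE 0.11, adjusted p = 0.0376) did not reach the fold threshold, and it was the only one of the 12 that was not called. Kif2c, a kinesin-13 that depolymerises microtubules at centromeres, measured 16.6, 11.8 and 6.14 CPM with vehicle and 6.63, 7.31 and 1.17 CPM with HC-HA/PTX3 (log2 fold change -1.35, SE 0.23, adjusted p = 0.00403). Its log2 ratios in pairs 1, 2 and 3 were -1.33, -0.70 and -2.39, so pair 3 carried the largest difference, and without it the change was -0.996. Kif18a, a kinesin-8 that restrains chromosome oscillation at the metaphase plate, showed 10.8, 9.101 and 5.36 CPM and 5.901, 5.22 and 3.28 CPM (log2 fold change -0.80, SE 0.13, adjusted p = 0.00266). In contrast to Kif2c, its pairs were close to one another, at -0.87, -0.80 and -0.71. Kif18b, a kinesin-8 that trims astral microtubules, measured 13.5, 11.8 and 5.91 CPM and 5.33, 6.199 and 1.73 CPM (log2 fold change -1.31, SE 0.16, adjusted p = 0.00101). Treated culture 2 was the only treated culture above vehicle culture 3 for Kif18b.

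The cytokinesis kinesins were lower in each pair as well. Kif23, which joins with Racgap1 to form the centralspindlin complex at the cell equator, was at 28.2, 19.4 and 8.64 CPM with vehicle and 10.6, 10.9 and 2.18 CPM with HC-HA/PTX3 (log2 fold change -1.35, SE 0.18, adjusted p = 0.00115). Kif20a, which brings Aurora B to the central spindle, measured 39.8, 30.5 and 15.5 CPM and 16.1, 18.8 and 3.71 CPM (log2 fold change -1.30, SE 0.19, adjusted p = 0.0019). Both genes were higher in treated cultures 1 and 2 than in vehicle culture 3. Kif20b, a kinesin-6 needed late in cytokinesis, had 34.1, 23.1 and 12.5 CPM and 13.4, 15.9 and 8.05 CPM (log2 fold change -0.85, SE 0.15, adjusted p = 0.00393). For Kif20b, pair 1 gave the largest log2 difference, with ratios of -1.35, -0.55 and -0.64 in pairs 1, 2 and 3. Kif14, a kinesin-3 of the midbody that binds citron kinase, showed 19.003, 13.4 and 5.36 CPM and 6.98, 7.89 and 1.24 CPM (log2 fold change -1.35, SE 0.20, adjusted p = 0.00194). Its level of 1.24 CPM in treated culture 3 rested on 49 counts. Summed over the 12 mitotic kinesins, the level was 301, 226 and 118 CPM in vehicle cultures (mean 215 ± 91.8, SD, n = 3) and 125, 135 and 46.8 CPM in HC-HA/PTX3 cultures (mean 102 ± 48.3). The sum was lower in each pair, and the pairs themselves differed more than 2-fold in level.

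**Figure D2:**
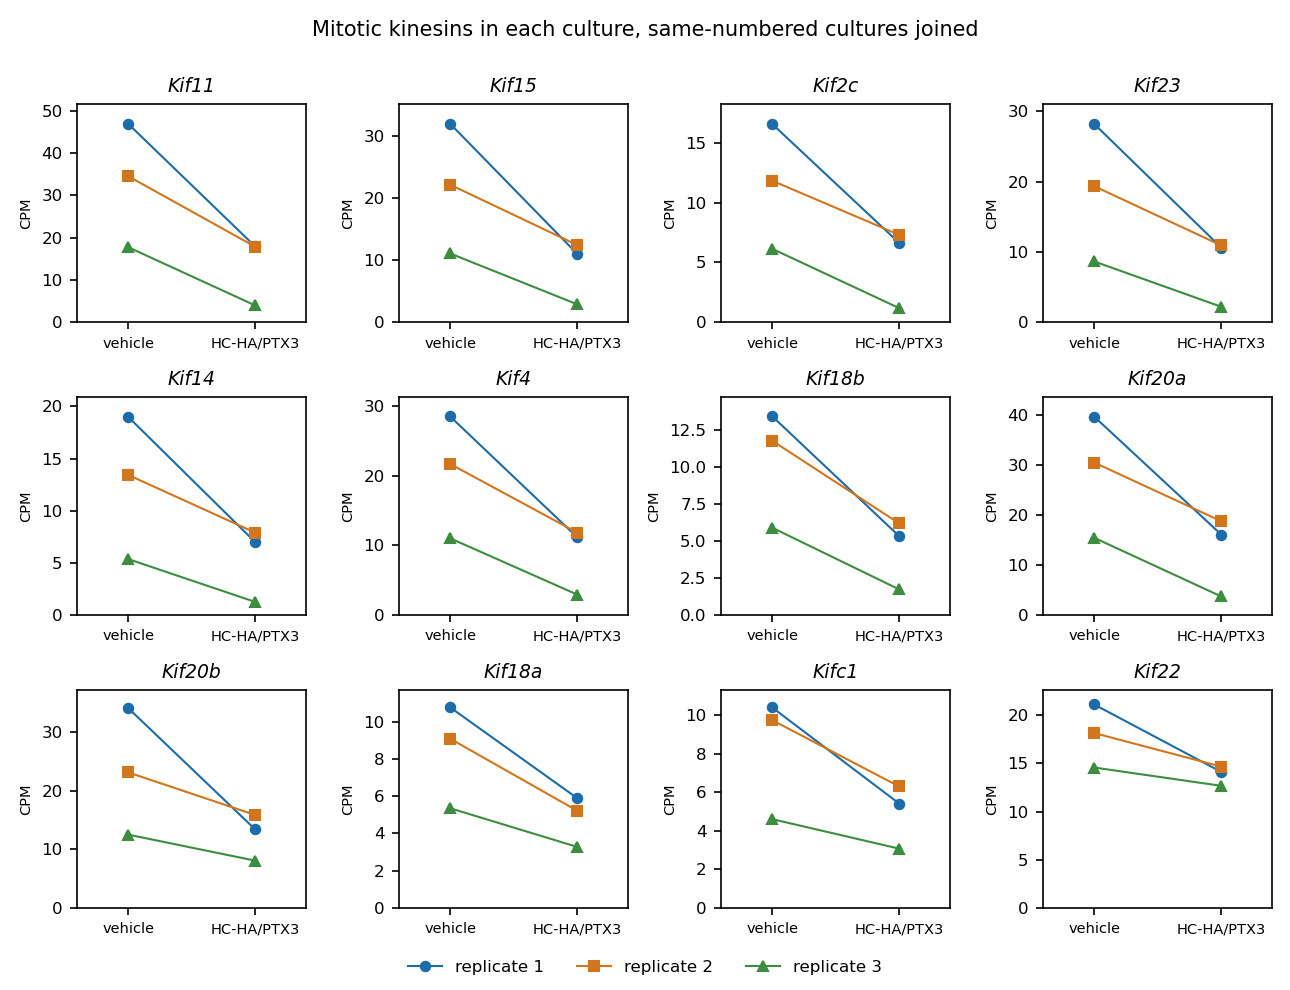
Level of each mitotic kinesin in CPM (vertical axes, starting at 0) in the 3 vehicle and 3 HC-HA/PTX3 cultures, with lines joining cultures of the same replicate number. Each line falls from vehicle to HC-HA/PTX3, and the replicate 3 pair (triangles) is the lowest in both groups, for Kif11 from 17.7 to 3.94 CPM.

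Genes that work with these motors moved in the same direction. Of 27 spindle partners, which encode kinetochore, spindle pole and cytokinesis proteins, 26 were called lower and 0 higher, with a median of -1.24. Among all tested genes 5.38% were called lower and 3.32% higher. Prc1, which bundles the central spindle microtubules that Kif4 binds, was the most abundant and measured 133, 88.01 and 39.7 CPM with vehicle and 51.6, 46.3 and 12.4 CPM with HC-HA/PTX3 (log2 fold change -1.31, SE 0.12, adjusted p = 0.000308). The spindle pole gene Aspm (-1.24, adjusted p = 0.000274) and the microtubule-bundling gene Nusap1 (-1.22, adjusted p = 0.000389) had the smallest p-values beside it. For these 3 genes vehicle culture 3 lay below treated culture 1. Of 12 general proliferation genes, all 12 were called lower, with a median of -1.43. Their most abundant member Mki67, a marker of cycling cells, was at 405, 269 and 116 CPM and 129, 133 and 19.1 CPM (log2 fold change -1.72, SE 0.22, adjusted p = 0.00104). The replication gene Mcm2 measured 36.8, 44.9 and 35.3 CPM against 18.7, 28.5 and 14.6 CPM (log2 fold change -0.97, SE 0.11, adjusted p = 0.000863), and Mcm5 (-1.55) and the cyclin gene Ccnb2 (-1.29) were also called lower. In contrast to the mitotic kinesins, 7 of the 12 proliferation genes, Mcm2 and Mcm5 among them, had every treated culture below every vehicle culture. The same held for 5 of the 27 spindle partners and for 1566 (8.57%) of all tested genes. Transcripts of these cell cycle genes were present in all 6 cultures, and their summed level was 922, 719 and 383 CPM with vehicle and 342, 386 and 105 CPM with HC-HA/PTX3.

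Marker lists of the cell types in a ganglion were set beside the mitotic kinesins. The 13 neuronal markers summed to 11734, 9136 and 10271 CPM with vehicle and 11987, 9672 and 11706 CPM with HC-HA/PTX3, led by the neurofilament gene Nefl, and 0 of 13 were called by edgeR, DESeq2 or limma-voom (6 with an unadjusted p under 0.05 in edgeR, against 6068 or 33.2% of all tested genes). Of the 13 fitted changes 10 were above 0 and 3 below, against 8929 above and 9348 below among the 18277 tested genes. In all 3 pairs 5 markers were higher and 1 lower, against 4609 and 5242 (28.7%) of all tested genes. Every treated culture lay above every vehicle culture for Uchl1 (0.32, adjusted p = 0.00853), Calca (0.23, adjusted p = 0.0711) and Avil (0.19, adjusted p = 0.061), and for 9.44% of all tested genes. Elavl4 (-0.28, adjusted p = 0.0404) was lower in all 3 pairs. Uchl1 and Elavl4 were short of the fold threshold. Of the 7 fibroblast markers 4 were called lower, beside 5.38% of all tested genes. The sum of the 7 was 3163, 3558 and 2129 CPM with vehicle and 1997, 2378 and 1039 CPM with HC-HA/PTX3. The called ones were the matrix genes Col1a1 (-1.62, adjusted p = 0.000547), Col1a2 (-1.11), Col3a1 (-0.96) and Fn1 (-0.51), of which Fn1 was the most abundant. The 3 remaining fibroblast markers, Dcn (-0.09), Lum (-0.31) and Pdgfra (-0.25), did not pass the test. Satellite glia markers, led by Glul, summed to 1690.2, 1114 and 551 CPM and 1683, 1142 and 605 CPM, and 0 of 7 were called by any of the 3 tools (4 with an unadjusted p under 0.05 in edgeR). Kcnj10 (-0.34, adjusted p = 0.0108) and Fabp7 (-0.40, adjusted p = 0.0154) were lower and Glul (0.28, adjusted p = 0.0198) higher in all 3 pairs, each short of the fold threshold. Like the mitotic kinesins, this list was lowest in replicate 3, but its sum differed little between the groups within each pair while its members went both ways.

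Macrophage markers were low, at 60.7, 79.4 and 64.3 CPM and 53.3, 73.8 and 42.7 CPM in sum, led by Cd68. Of the 10, Cd163 (-1.98), C1qb (-0.82) and C1qa (-0.74) were called lower, Cd163 from at most 41 counts in a culture, and DESeq2 called 2 of the 10 and limma-voom 3. The 7 endothelial markers, led by Cdh5, summed to 257, 275 and 310.0 CPM and 264, 311 and 283 CPM, with 0 called by any of the 3 tools (0 with an unadjusted p under 0.05 in edgeR). Among 6 mural cell markers, led by Rgs5, Acta2 was called lower (-1.03) and Abcc9 higher (0.57), with sums of 433, 530.4 and 383 CPM and 437, 511 and 276 CPM (1 called by DESeq2 and 2 by limma-voom). No marker in these lists was at 0 counts in all 6 cultures. The most abundant macrophage marker Cd68 (-0.01) was not called, and Mrc1 (0.34, adjusted p = 0.0977) was higher in all 3 pairs but likewise not called. Thus 4 of 7 fibroblast and 3 of 10 macrophage markers were called lower alongside the mitotic kinesins, and their part in the result was not tested. Among all tested genes 5.38% were called lower and 3.32% higher.

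**Figure D3:**
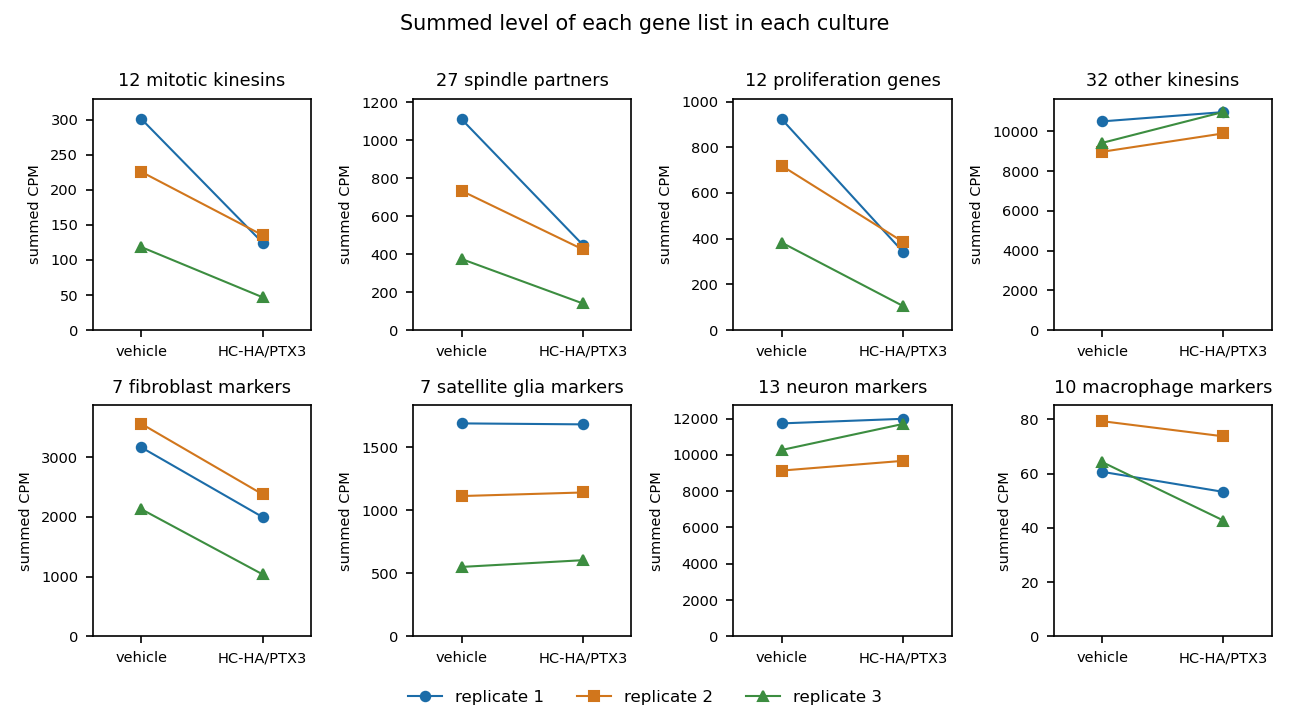
Summed level of 8 gene lists in CPM (vertical axes, starting at 0) in each culture, with lines joining cultures of the same replicate number. Mitotic kinesins, spindle partners, proliferation genes and fibroblast markers fall within each pair, satellite glia markers differ by replicate number and little by treatment, and the 32 other kinesins sum to between 8972 and 10978 CPM.

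Because the mitotic kinesins moved together, their promoters were searched for short motifs linked to cell cycle genes. RefSeq windows of 300 bases (250 before and 50 after a transcription start, GRCm38.p6) were matched to 35 of the 44 kinesins, 11 of them mitotic (Kif20a had none). The letters TTTGAA, the core of the cell cycle genes homology region, stood on either strand in 10 of 11 mitotic windows (90.9%), in 4 of 28 windows of other kinesins (14.3%) and in 17.9% of all 32851 windows. In 8 of the 11 the motif began within 30 bases of the start (72.7%), compared with 2 of the 28 (7.14%) and 3.14% of all windows, a range chosen after the positions had been seen. The letters CCAAT, bound by the factor NF-Y, occurred in 7 of 11 mitotic windows (63.6%), 12 of 28 others (42.9%) and 37.4% of all windows. Sequences typical of E2F sites, TTTGGCGC, TTTCGCGC or TTTCCCGC, occurred in 2 of 11 (18.2%), 0 of 28 and 1.84%. The mitotic exception for TTTGAA was Kif18a, whose window held an E2F-type match. A match describes letters in a window and shows no binding.
The bases just before the start show where these letters lie in 4 mitotic kinesins and 2 others, given 5′ to 3′ on the gene's strand up to the base before the start. Capitals mark the letters of all 3 motifs on either strand. The stretches lie between genes, before the outermost RefSeq start of each gene: Kif11 at chr19:37376182-37376381 on the plus strand, Kif15 at chr9:122951001-122951080 plus, Kif4 at chrX:100625949-100626064 plus, Kifc1 at chr17:33890634-33890833 minus, Kif26b at chr1:178528925-178529124 plus and Kif5c at chr2:49619086-49619285 plus. Those of Kif15 and Kif4 are shorter because they stop at the edge of the neighbouring genes 1110059G10Rik and Pdzd11.
Kif11: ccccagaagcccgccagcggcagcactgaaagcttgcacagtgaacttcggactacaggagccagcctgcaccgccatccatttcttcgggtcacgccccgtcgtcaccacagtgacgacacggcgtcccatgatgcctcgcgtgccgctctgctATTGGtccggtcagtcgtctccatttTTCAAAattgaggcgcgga
Kif15: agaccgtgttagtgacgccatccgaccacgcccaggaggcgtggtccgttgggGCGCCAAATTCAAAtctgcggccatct
Kif4: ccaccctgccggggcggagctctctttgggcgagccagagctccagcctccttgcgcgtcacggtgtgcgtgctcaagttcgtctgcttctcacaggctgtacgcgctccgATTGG
Kifc1: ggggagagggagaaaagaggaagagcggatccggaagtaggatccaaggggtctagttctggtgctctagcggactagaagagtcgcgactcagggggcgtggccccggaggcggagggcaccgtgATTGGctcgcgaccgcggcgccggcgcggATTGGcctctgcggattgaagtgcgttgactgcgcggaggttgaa
Kif26b: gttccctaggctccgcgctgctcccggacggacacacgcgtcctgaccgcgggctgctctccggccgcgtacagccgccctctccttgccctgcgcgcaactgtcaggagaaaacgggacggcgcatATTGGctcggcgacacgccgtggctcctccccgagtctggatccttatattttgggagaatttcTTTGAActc
Kif5c: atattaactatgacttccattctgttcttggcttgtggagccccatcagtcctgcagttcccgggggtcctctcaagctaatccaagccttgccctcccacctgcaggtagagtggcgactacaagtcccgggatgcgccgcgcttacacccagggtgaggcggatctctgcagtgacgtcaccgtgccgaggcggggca
In Kif11 a CCAAT match at -45 was followed by TTTGAA at -19, and in Kif15 the E2F-type match at -27 ran into TTTGAA at -19. Kif4 had CCAAT at -5 and Kifc1 at -74 and -45, while their TTTGAA matches began just after the start, at 20 and 2. Kif26b, a kinesin-11 outside the mitotic group, carried CCAAT at -73 and TTTGAA at -9, and its level was 76.2, 62.2 and 86.3 CPM with vehicle and 49.4, 49.1 and 71.4 CPM with HC-HA/PTX3. Its change of -0.41 (adjusted p = 0.0067) did not reach the fold threshold. The neuronal motor gene Kif5c had none of the letters in its window. TTTGAA also stood in a window of Kif1a, of Kif27 and of Kifc5b, whose changes were 0.14, 0.09 and -0.14, none of them called. The window of Kif24, which was called lower at -0.92, held CCAAT but no TTTGAA.

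The transport kinesins dominated the family in level. Per kilobase of exon, the most abundant members in vehicle cultures were Klc1 (318 ± 24.6 CPM per kilobase, mean ± SD, n = 3), Kif1a (192 ± 18.5), Kif21a (187 ± 25.6), Kif5a (139 ± 10.01), Kif5b (135 ± 7.96), Kif5c (124 ± 12.9) and Kif1b (102 ± 11.4). Within 1 SD, neighbours from Kif1a to Kif21a and from Kif5a to Kif1b overlapped, so their order is not fixed by 3 cultures. The mitotic kinesins lay far lower on the same scale, between 1.41 (Kif14) and 8.49 (Kif22) CPM per kilobase.

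**Figure D4:**
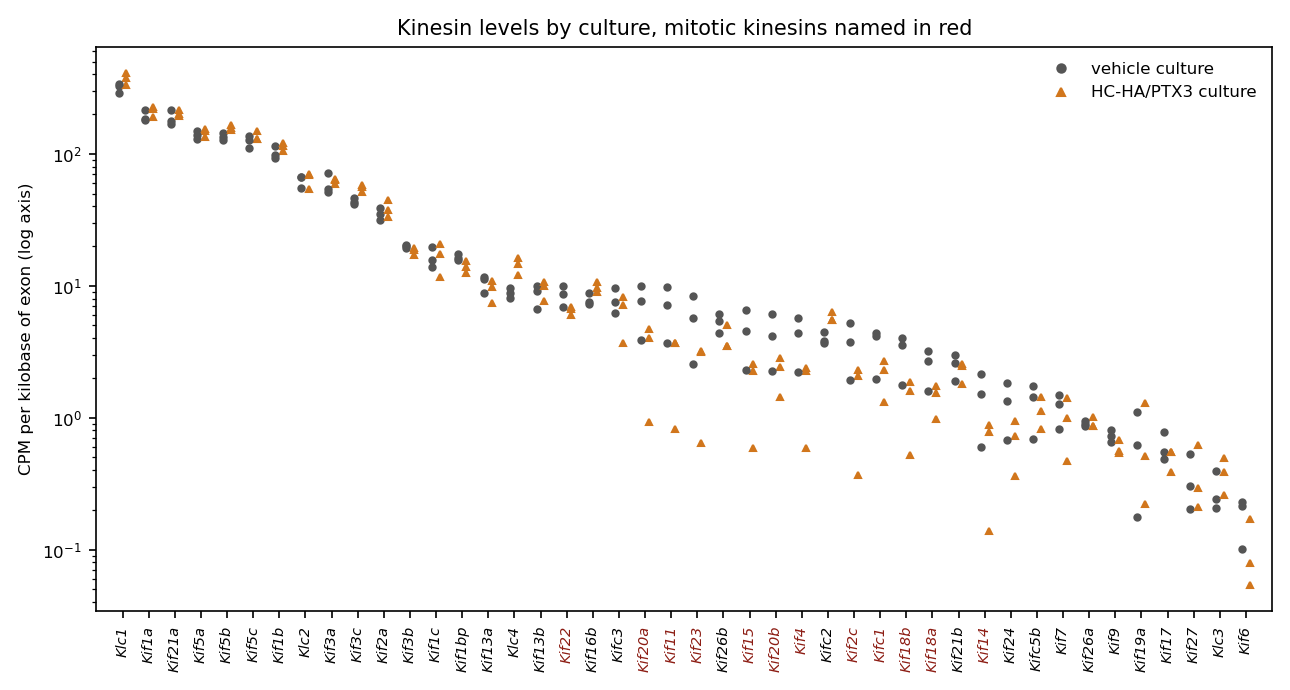
Level of the 44 kinesins per kilobase of exon (vertical log axis, CPM per kilobase) in each vehicle culture (circles) and HC-HA/PTX3 culture (triangles), ordered by the vehicle mean. Klc1 leads with a vehicle mean of 318 and Kif6 is last, and the mitotic kinesins, named in red, spread downward in treated culture 3.

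Kinesin-1, the main fast anterograde motor, is built from 2 heavy chains and 2 light chains. The neuronal heavy chain Kif5a measured 1040.5, 901 and 976 CPM in vehicle cultures and 1044, 945 and 1069 CPM in HC-HA/PTX3 cultures, and the groups overlapped (log2 fold change 0.07, SE 0.06, adjusted p = 0.499). Kif5c, likewise neuronal, had 933, 758 and 868 CPM and 889.9, 885 and 1023 CPM (log2 fold change 0.13, SE 0.08, adjusted p = 0.259). Its pair 1 ran against the other 2 pairs. The widely expressed heavy chain Kif5b was at 862, 766 and 812 CPM with vehicle and 949, 909 and 1001 CPM with HC-HA/PTX3. Every treated culture was above every vehicle culture, yet the difference was small (log2 fold change 0.23, SE 0.07, adjusted p = 0.0347) and was not called. Klc1, the chief neuronal light chain, measured 1022, 903 and 1047 CPM and 1169, 1034 and 1285 CPM (log2 fold change 0.23, SE 0.06, adjusted p = 0.0331), again past the p threshold but not the fold threshold. Klc2, a light chain found in many tissues, had 213, 177 and 212 CPM and 225, 174 and 222 CPM, with a change of 0.04 (95% confidence interval -0.09 to 0.18).

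Klc4 was the kinesin gene that rose most. This light chain, encoded at chr17:46630624-46646189, measured 20.9, 19.2 and 23.002 CPM with vehicle and 34.9, 28.9 and 38.6 CPM with HC-HA/PTX3. The lowest treated culture lay above the highest vehicle culture, and the 3 pairs gave log2 ratios of 0.74, 0.59 and 0.75. The fitted change was 0.69 (SE 0.08, 95% confidence interval 0.51 to 0.88, adjusted p = 0.000938), and it was 0.68 without replicate 3. Per kilobase, Klc4 was present at 8.85 ± 0.805 CPM in vehicle cultures, far below Klc1, so that the summed level of the 4 light chains went from 1256, 1100.4 and 1282 CPM to 1430.1, 1238 and 1546 CPM. Without the block its adjusted p was 0.244, the smallest of the 44 kinesins in that fit.

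Kinesin-2 carries vesicles in axons and cargo into cilia as a pair of heavy chains with an adaptor. Kif3a measured 230.4, 165 and 174 CPM and 209.7, 189 and 204 CPM in vehicle and treated cultures (log2 fold change 0.10, SE 0.08, adjusted p = 0.419), with overlapping groups. Its partner Kif3b had 114, 109 and 112 CPM and 96.5, 105 and 109 CPM (log2 fold change -0.12, SE 0.07, adjusted p = 0.25). All treated cultures of Kif3b lay just below the vehicle cultures without passing the test. Kif3c, which pairs with Kif3a and is mainly neuronal, was at 299, 290.4 and 321 CPM with vehicle and 389, 358 and 399.7 CPM with HC-HA/PTX3 (log2 fold change 0.33, SE 0.06, adjusted p = 0.00493). Its groups did not overlap, but the change stayed under the fold threshold, and 43.6% of its annotated exon bases also lie in exons of other genes, so some of its reads may belong to those. Kif17, a homodimeric kinesin-2 known from dendrites and cilia, was scarce at 1.898, 1.68 and 2.68 CPM and 1.89, 1.35 and 1.904 CPM (log2 fold change -0.28, SE 0.20, adjusted p = 0.351).

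The kinesin-3 motors that carry synaptic vesicle precursors and mitochondria were abundant and were not called. Kif1a had 1851, 1552 and 1600.1 CPM with vehicle and 1974, 1656 and 1888 CPM with HC-HA/PTX3 (log2 fold change 0.14, SE 0.07, adjusted p = 0.173). Kif1b measured 1719, 1396 and 1463 CPM and 1800.3, 1571 and 1728 CPM (log2 fold change 0.16, SE 0.07, adjusted p = 0.13). Both were higher in treated cultures in all 3 pairs, with overlapping groups. Kif16b, a kinesin-3 of early endosomes, had every treated culture above every vehicle culture (65.1, 55.98 and 53.99 CPM and 79.4, 66.1 and 70.7 CPM), and its change of 0.31 (adjusted p = 0.0116) was short of the fold threshold. Kif1c, a kinesin-3 that moves vesicles in many cell types, measured 114, 143 and 102 CPM and 127, 151 and 84.1 CPM (-0.01). The endosomal motor Kif13a had 76.9, 80.1 and 60.3 CPM and 67.4, 74.2 and 50.8 CPM (-0.18), and its relative Kif13b 88.6, 81.8 and 59.3 CPM and 96.1, 89.1 and 68.5 CPM (0.15). None of the 3 was called, and their groups overlapped. Kif21a, a kinesin-4 that slows microtubule growth and is strong in neurons, showed 1398, 1154 and 1081 CPM and 1388, 1261 and 1287 CPM (log2 fold change 0.12, SE 0.07, adjusted p = 0.259). Its vehicle cultures spanned the treated ones. The kinesin-4 members Kif21b (-0.12), Kif27 (0.09) and the Hedgehog pathway gene Kif7 (-0.39, adjusted p = 0.131) were not called.

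**Figure D5:**
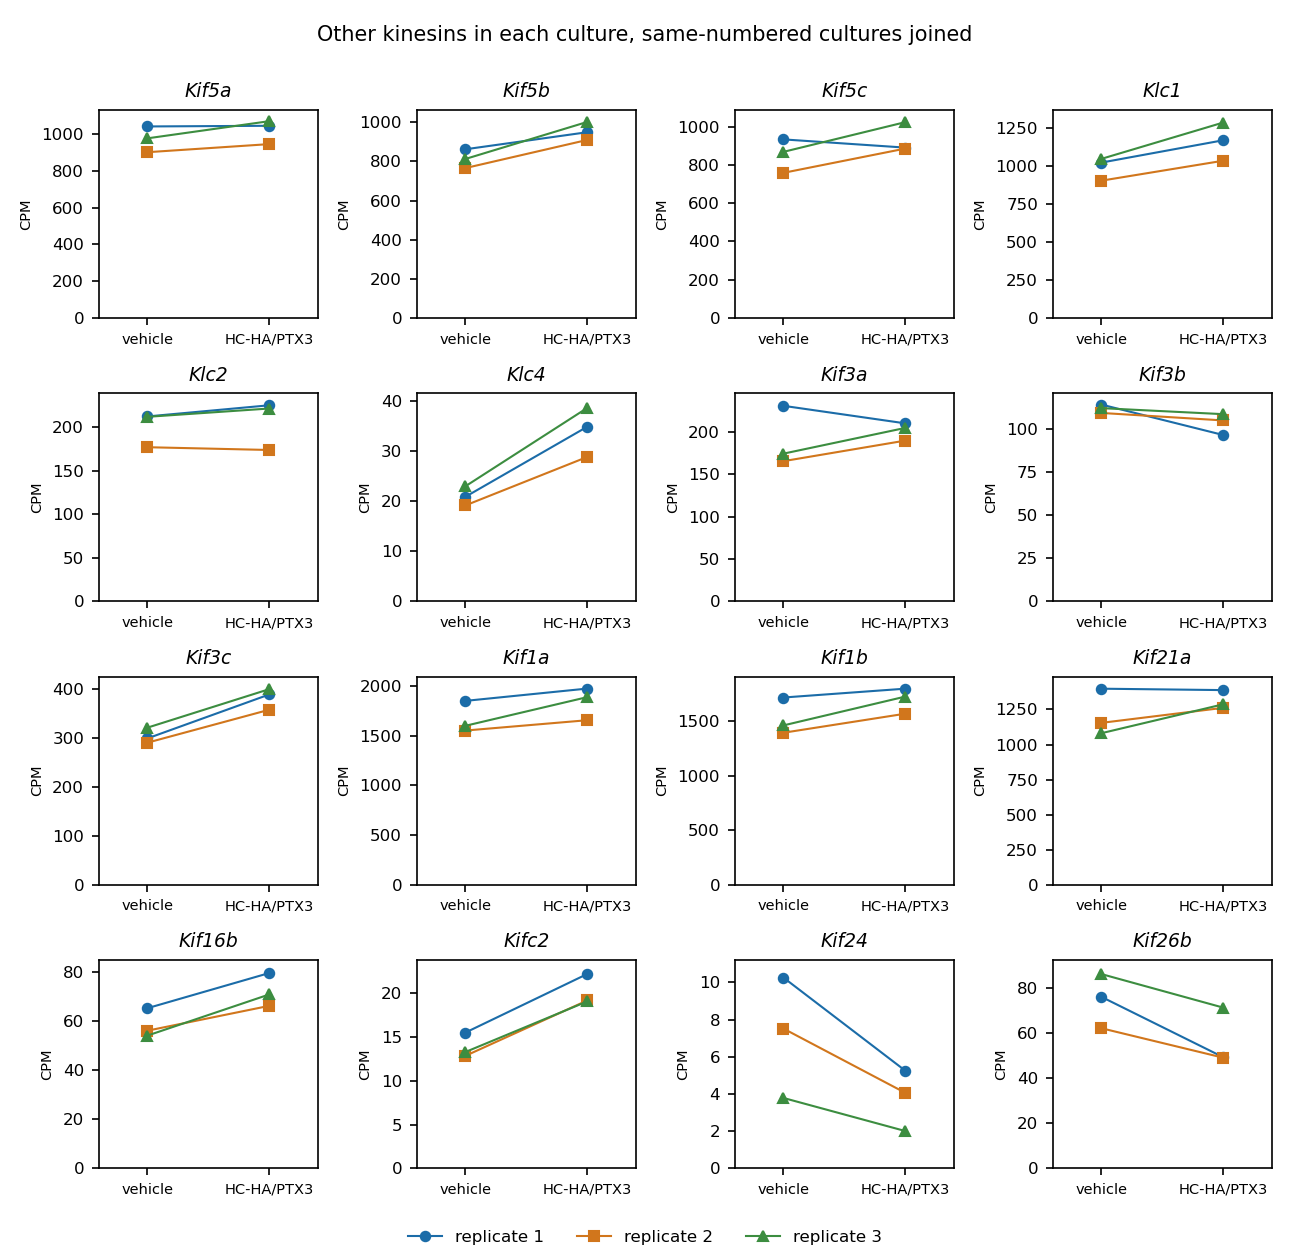
Level of 16 other kinesins in CPM (vertical axes, starting at 0) in the 3 vehicle and 3 HC-HA/PTX3 cultures, with lines joining cultures of the same replicate number. Lines are nearly level for Kif5a and Klc2 and rise slightly for Kif1a. They rise for Klc4 (from 20.9, 19.2 and 23.002 CPM to 34.9, 28.9 and 38.6 CPM) and Kifc2, and fall for Kif24.

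Beyond Klc4, 2 kinesins outside the mitotic group were called. Kifc2, a minus-end-directed kinesin-14 first described in neurons and encoded at chr15:76659784-76668196, measured 15.5, 12.8 and 13.3 CPM in vehicle cultures and 22.2, 19.2 and 19.1 CPM in HC-HA/PTX3 cultures. The groups did not overlap, the pairs gave 0.52, 0.58 and 0.52 in log2 ratio, and the change was 0.54 (SE 0.09, adjusted p = 0.0037), close to the fold threshold. The kinesin-14 Kifc1, by contrast, fell. Kif24, a kinesin-13 of the centriole that restrains cilium formation in cycling cells, lies at chr4:41389964-41464919 and had 10.3, 7.52 and 3.79 CPM with vehicle and 5.25, 4.06 and 2.01 CPM with HC-HA/PTX3. Vehicle culture 3 was below treated cultures 1 and 2, while the pairs were nearly equal at -0.97, -0.89 and -0.92 (log2 fold change -0.92, SE 0.13, adjusted p = 0.00176). Kif2a, a neuronal kinesin-13 that prunes axon branches and among the most abundant of the remaining kinesins per kilobase (35.1 ± 3.798 CPM), measured 204, 182 and 226 CPM and 216, 193 and 258 CPM (log2 fold change 0.12, SE 0.06, adjusted p = 0.195). The groups of Kif2a overlapped widely. Of the 32 other kinesins, 5 had every treated culture above every vehicle culture (Kif5b, Klc4, Kifc2, Kif3c and Kif16b) and 2 had every one below (Kif3b and Kif1bp), beside 9.44% and 8.57% of all tested genes. Beside the 3 called genes, 6 had an adjusted p under 0.05 with a change short of the threshold (1914 of all tested genes, 10.5%): Kif5b, Klc1, Kif3c, Kif16b, Kif26b and Kif1bp. The kinesin-binding protein gene Kif1bp was at 68.1, 63.1 and 61.3 CPM with vehicle and 60.1, 54.4 and 48.4 CPM with HC-HA/PTX3 (log2 fold change -0.24, SE 0.07, adjusted p = 0.0334).

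The remaining members were scarce or uneven. Kif26a (0.02), Kifc3 (-0.34, adjusted p = 0.0717), the ciliary gene Kif9 (-0.30) and Kif19a (0.07), which shortens ciliary microtubules, were not called. Kif19a differed by replicate number more than by treatment, at 3.82, 2.14 and 0.607 CPM and 4.45, 1.77 and 0.762 CPM. Kifc5b, a near copy of Kifc1, had 4.54, 3.77 and 1.804 CPM and 2.94, 3.77 and 2.16 CPM (log2 fold change -0.14, SE 0.20, adjusted p = 0.668), and since reads could be split between the 2 genes, the values of both are uncertain. Just inside the minimum, Kif6 had 30, 35 and 20 raw counts with vehicle and 7, 23 and 11 with HC-HA/PTX3, and Klc3 had 20, 35 and 24 and 38, 30 and 21. Neither was called, and the change of Kif6 was imprecise (95% confidence interval -1.68 to 0.01), so that a fall as large as the mitotic median is not excluded. Just outside it were the antisense gene Kif16bos with 2 or 3 counts in each culture, and Kif2b, Kif12 and the pseudogene Kif4-ps, none of which had more than 1 count in a culture. Over 10% of the exon bases lay in exons of other genes for 9 of the 44 members, Kif20a and Kif4 among the mitotic ones, and since the strand setting of the counting is not given, their values hold an unknown share of those genes' reads.

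In 3 lists of genes that work with the transport kinesins, 1 gene each was called (1 of 20, 1 of 18 and 1 of 17), beside 8.70% of all tested genes. Among 20 genes of dynein and dynactin, the retrograde motor and its cofactor, 1 was called lower and 0 higher, with a median of 0.06. That gene was Nde1, a dynein regulator that also works at the kinetochore, with 37.1, 32.6 and 19.97 CPM and 23.8, 26.4 and 13.5 CPM. Its change of -0.50 (adjusted p = 0.0053) sat at the fold threshold, and the call was lost without replicate 1 and without replicate 3. The dynein heavy chain Dync1h1 was the most abundant at 2189.6, 2145 and 1966 CPM and 2692, 2479.8 and 2561 CPM (log2 fold change 0.30, SE 0.07, adjusted p = 0.0149), and the intermediate chain Dync1i1 had a like change of 0.31 (adjusted p = 0.014). Of 18 cargo adaptors, a list that includes Kif1bp from the 32 other kinesins, 1 was called higher, Hap1, a huntingtin partner that binds kinesin light chains, at 13.5, 15.8 and 7.09 CPM and 26.6, 29.3 and 11.9 CPM (log2 fold change 0.88, SE 0.10, adjusted p = 0.000764). Hap1 was highest in replicates 1 and 2 of each group. Madd (0.31) and Sybu (0.32), adaptors of Kif1 motors and of kinesin-1, were short of the fold threshold, and the lysosomal adaptor Arl8a, the most abundant of the list, was at -0.04. Of 17 tubulins and microtubule-associated proteins, Tuba4a was called higher (81.6, 60.2 and 65.7 CPM and 118, 82.4 and 96.1 CPM, log2 fold change 0.51, SE 0.06, adjusted p = 0.000938). The most abundant of these track genes, Map1b, had a change of -0.01, and Tubb5 (-0.20) and Map7 (-0.24), an activator of kinesin-1, did not pass the test.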

How the data were processed

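Total RNA of the 6 cultures was depleted of ribosomal RNA and sequenced. The counts deposited by the authors are whole numbers of reads per gene symbol, not normalized, 1 culture per table. Per the submitters' notes, reads were aligned to mm10 with HISAT2 and counted with featureCounts (Subread), with limma and edgeR downstream, whereas the headers of the count tables name STAR. Versions and strand were not given in the sources used here.

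Genes were filtered with filterByExpr by treatment, scaled by TMM and fitted in edgeR 4.0.16 (R 4.3.3) with the quasi-likelihood test, using treatment and replicate number as terms, because the study's methods fit batch plus condition. P-values were adjusted by Benjamini-Hochberg over 18277 genes. Groups and pairing came from the titles, which do not state that the replicate number marks a batch. Deviations from the group means correlated at r = 0.631, 0.536 and 0.774 for same-numbered cultures and at -0.613 to 0.148 for others, so the numbers were taken to pair the cultures. No 2 libraries of a group agreed within sampling noise (chi-square per degree of freedom 34.5 to 119). The procedure was tested on simulated data. Exon lengths were unions of exons of protein-coding transcripts in GENCODE M21, and promoters and gene positions came from RefSeq (GRCm38.p6). Alternatives used DESeq2 1.42.0, limma 3.58.1 and ComBat-seq (sva 3.50.0).

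Values in each culture were given for the mitotic kinesins, other called kinesins, members just inside and outside the minimum, kinesin-1 chains, kinesin-2 subunits, Kif1a, Kif1b, Kif21a and the 5 other kinesins highest per kilobase. The most abundant member over 6 cultures and the 3 with the smallest p were named for companion gene lists, not all with such values. For 1 marker list, Schwann cell myelin, only the ratios of replicate 3 to replicate 1 are given in the text. Other named genes were chosen after their values were seen. The members, lists and tests were chosen with earlier results of these data known.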

Additional observations from a re-analysis of the deposited data

How the results depend on the processing

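Of the 14 called kinesins, all kept their call and direction under each of 11 alternatives with the replicate block (DESeq2, limma-voom, ComBat-seq, upper-quartile and RLE scaling, 2 other count filters, thinned libraries, and each replicate pair left out), except Kifc1 without replicate 1. The filter of 10 counts in every culture left out Kif6. With no replicate block, 0 mitotic kinesins were called lower, 0 other kinesins lower, 0 other kinesins higher, 0 spindle partners, 0 cargo adaptors, 0 dynein and dynactin genes and 0 of all genes; the cause was not tested. With no fold threshold, 3505 genes were called in all, 12 mitotic kinesins lower, 3 other kinesins lower and 6 higher, 4 cargo adaptors and 4 dynein and dynactin genes, since more genes then qualify. The dynein and dynactin count was 0 with limma-voom, ComBat-seq, upper-quartile scaling and the filter of 10 counts in every culture, and 0 to 1 when a replicate pair was left out (cause not tested). Over the same omissions the count of all genes was 878 to 1571, lowest without replicate 1, that of mitotic kinesins 10 to 11, and their median log2 fold change -1.62 to -1.04. Lower genes made up 61.8% of all calls, and 51.5% (ComBat-seq) to 71.8% (without replicate 1) over the alternatives with the block. Over the same alternatives, the count of genes called higher ran from 248 (without replicate 1) to 1037 (ComBat-seq). The median of mitotic kinesins was -1.35 to -1.21 over the remaining settings. All 12 mitotic kinesins had a fitted change below 0 in each of the 12 refits. Depth limits Kif6 and Klc3, which had at most 35 and 38 counts in a culture.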
